A study of Mus musculus with 15 samples.

Results

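Transcripts of 8 genes of cholesterol synthesis and its control by SREBP (sterol regulatory element binding protein) were followed in CD4 T cells of the small intestinal lamina propria, the tissue layer under the gut epithelium. The members were taken by the gene name printed on the array and not by any rule on measured values. The members were chosen with earlier results of these data known. They are the enzyme genes Hmgcs1, Mvk, Idi1, Fdps and Sqle and the regulators Insig1, Srebf1 and Srebf2, 8 of the 34750 gene names on the array, read by 11 of its 55680 probes. All 8 passed the filter on dim genes that left 25973 genes tested. The cells had been sorted by flow cytometry from male mice on normal chow (control), after 10 days of a high fat diet (HFD d10) or after 30 days of it (HFD d30), with 5 one-colour arrays in each of the 3 groups. All groups share the sort and an amplification meant for small amounts of RNA, and the labels used here name no strain or age, no day for the controls and no number of animals behind a sample. The p-values therefore set each difference against the scatter of these samples, part of which may be technical. That scatter may not be the one between animals.

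Cholesterol is built from acetyl-CoA through mevalonate and a chain of isoprenoids, and the same chain supplies the lipid anchors of small GTPases. SREBP2, encoded by Srebf2, drives the genes of this chain when sterols in the endoplasmic reticulum are low, while SREBP1, encoded by Srebf1, acts more on fatty acid synthesis. SCAP carries the SREBP precursors to the Golgi for cleavage, and INSIG proteins hold them back when sterols are plentiful. T cells that are activated turn this programme up to make membrane.

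Values are given as each probe's processed signal on the log2 scale after subtraction of the array's own 75th percentile, so that 0 is the brightness of a probe at that percentile and 1 unit is a doubling. Values of different probes are not set against each other, since brightness also depends on the probe. No spot was saturated. Spots well above background made up 50.9 to 82.0% of the control arrays, 55.3 to 61.9% of HFD d10 arrays and 45.2 to 59.5% of HFD d30 arrays, and the number of arrays limits the precision of every difference. Slide 1 carried the 5 controls and HFD d10 replicates 1 to 3, and slide 2 the other HFD d10 arrays and all HFD d30 arrays, so that no slide held both control and HFD d30. Of 8 CD4 T cell markers, 7 were well above background on all 15 arrays (Cd247 on 14). Of 11 markers of absorptive epithelium, cells that make and absorb sterols, Krt18 was so on all 15 arrays, Krt20 on 14, Fabp2 on 13 and Epcam and Apoa4 on 11 each, while Alpi and Apob were so on no array. The part of such cells in the results was not tested. The mean log2 value of the epithelial list lay between -3.79 and -2.12 on control arrays, -3.92 and -2.59 on HFD d10 arrays and -4.10 and -2.89 on HFD d30 arrays. In such bulk samples fewer cells of a type and less RNA per cell cannot be told apart.

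Across the diet, Mvk and Srebf2 were the members whose brighter probe lay higher in both diet groups than in control by the lowest p-values, and the other 6 members spread as widely within groups as between them. Neither reached an adjusted p under 0.05, and both genes carry a dimmer probe that differed from control in the other direction at HFD d30, and for Srebf2 also at HFD d10. In a limma fit over all tested genes, 0 genes had an adjusted p under 0.05 in any of the 3 comparisons (0% for HFD d10 against control, 0% for HFD d30 against control, 0% for HFD d30 against HFD d10). At an unadjusted p under 0.05, without correction for the number of genes, there were 673 genes (2.59%) for HFD d10 against control, with 1 of the 8 members (Mvk). There were 1336 genes (5.14%) for HFD d30 against control, with 2 of the members (Mvk and Srebf2), and 1065 genes (4.1%) for HFD d30 against HFD d10, with 0 of the members. Without control replicate 3 the HFD d30 count against control was 2263. In a limma fit of the 11598 genes well above background on all 15 arrays, Mvk and Srebf2 among them, 697 had an unadjusted p under 0.05 for HFD d30 against control. Of these, 75.9% were higher at HFD d30, and the median difference of the 11598 genes was 0.21. By sign alone, 3 members lay higher at HFD d10 than in control (49.9% of all genes did), 5 at HFD d30 than in control (50.3%) and 7 at HFD d30 than at HFD d10 (53.1%).

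**Figure D1:**
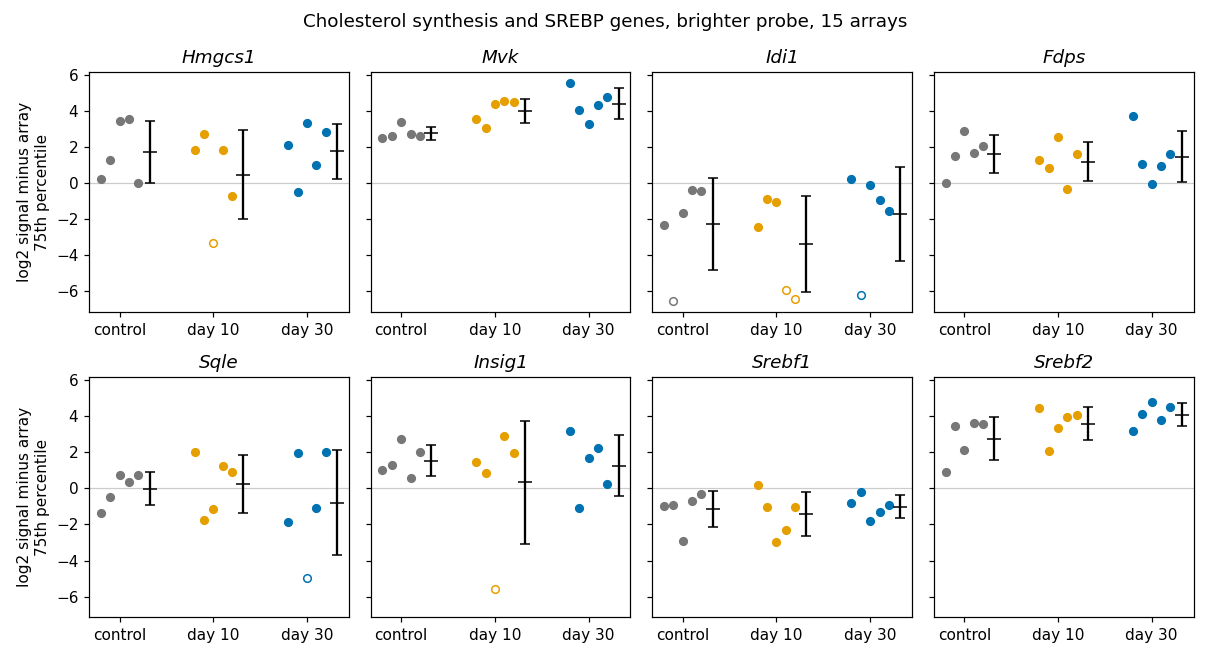
Each point is 1 array, by group on the x axis, and the y axis is the log2 signal of the gene's brighter probe minus the array's 75th percentile. Open points were not well above background, and the bar is the mean ± SD (n = 5). All 10 diet arrays of Mvk lie above the control mean of 2.76, the Srebf2 groups overlap, and single arrays of Hmgcs1, Idi1, Sqle and Insig1 drop to between -6.54 and -3.30.

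Mvk encodes mevalonate kinase, which adds the first phosphate to mevalonate. Its brighter probe gave 2.48, 2.61, 3.41, 2.70 and 2.60 on the control arrays, 3.58, 3.03, 4.38, 4.53 and 4.48 on the HFD d10 arrays and 5.56, 4.07, 3.26, 4.32 and 4.80 on the HFD d30 arrays. All 10 diet arrays were above the control mean, but the highest control, replicate 3, exceeded the lowest array of each diet group, so the groups overlapped. HFD d10 averaged 4.00 ± 0.67 against 2.76 ± 0.37 in control (SD, n = 5 each), which is 1.24 higher on the log2 scale (SE 0.42, 2.36-fold) with unadjusted p = 0.00954 and adjusted p = 0.9998 by limma. That difference was 0.90 with slide as a block (unadjusted p = 0.0764) and 0.64 in the deposited values (unadjusted p = 0.0576). HFD d30 averaged 4.40 ± 0.85 against 2.76 ± 0.37 in control, which is 1.64 higher on the log2 scale (SE 0.42, 3.12-fold) with unadjusted p = 0.00129 and adjusted p = 0.880, which ranked 38 among the 25973 genes by p. With slide as a block the HFD d30 difference was 0.80 (unadjusted p = 0.287), and it was 0.56 in the deposited values (unadjusted p = 0.0952). Between HFD d30 and HFD d10 the difference was 0.40 (95% interval -0.49 to 1.29).

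The dimmer Mvk probe, which starts 241 bases further downstream on the genome, had another pattern. It gave 3.04, 1.50, 1.67, 2.75 and 0.82 on the control arrays, 2.59, 2.82, 2.83, 2.77 and 2.22 on the HFD d10 arrays and 1.86, 0.26, 1.23, 1.98 and 1.89 on the HFD d30 arrays. Every HFD d30 array was below every HFD d10 array, which 0.578% of the 38436 tested probes showed in either direction. The log2 difference of HFD d30 from HFD d10 was -1.20 (SE 0.48, unadjusted p = 0.0225, adjusted p = 0.999 by limma over all tested probes), and -1.05 with slide as a block (unadjusted p = 0.128). HFD d10 lay 0.69 above control (95% interval -0.32 to 1.70), and HFD d30 lay on the other side of control at -0.51 (95% interval -1.52 to 0.50). The probes hybridise to chr5:114910299-114910358 and chr5:114910540-114910599 on the plus strand of mm9, both annotated to transcript NM_023556 of Mvk. To show where they differ, 30 bases of each are given 5′ to 3′ as deposited. The capitals mark AATAAA, the common polyadenylation signal, which only the downstream probe of the pair holds and which 10.1% of all probes on the array hold.
Mvk brighter probe, chr5:114910299-114910328: ttctgaagccaggcagggattagttgtggg
Mvk dimmer probe, chr5:114910564-114910593: tgctgtgggggaAATAAAaagaaatagtac

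Srebf2, the gene of the main activator of cholesterol synthesis, showed a wider split between its probes. The brighter probe gave 0.92, 3.46, 2.12, 3.65 and 3.59 on the control arrays, 4.46, 2.08, 3.36, 3.94 and 4.08 on the HFD d10 arrays and 3.16, 4.10, 4.81, 3.81 and 4.53 on the HFD d30 arrays. Control replicates 1 and 3 were low, and the groups overlapped. HFD d30 averaged 4.08 ± 0.64 against 2.75 ± 1.20 in control (SD, n = 5 each), which is 1.34 higher on the log2 scale (SE 0.57, 2.52-fold, 5 of 5 arrays above the control mean) with unadjusted p = 0.0316 and adjusted p = 0.927 by limma. That difference was 0.62 with slide as a block, 0.74 with the share of detected spots as a covariate and 0.33 in the deposited values, and without control replicate 1 it was 0.88. As a mean of both probes it was -0.33, the opposite sign. HFD d10 averaged 3.58 ± 0.93 against 2.75 ± 1.20, a difference of 0.84 (SE 0.57, unadjusted p = 0.159), or 0.38 without control replicate 1.

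The dimmer Srebf2 probe had its lower values on the diet arrays. It gave 0.39, 1.26, 1.32, 1.77 and 1.52 on the control arrays, 1.26, -2.60, -0.70, -1.70 and -3.21 on the HFD d10 arrays and -0.93, 0.96, -3.89, 1.37 and -1.21 on the HFD d30 arrays. The 5 controls were close together, and 1 HFD d10 array and 2 HFD d30 arrays reached into their range. HFD d10 averaged -1.39 ± 1.76 against 1.25 ± 0.52 in control, with a difference of -2.64 (SE 0.96, unadjusted p = 0.0139, adjusted p = 0.9998 by limma over probes). It was -1.93 with slide as a block (unadjusted p = 0.0942) and -1.50 in the deposited values (unadjusted p = 0.0110). The deposited values lack HFD d10 replicate 5, the lowest array of that group at -3.21. HFD d30 averaged -0.74 ± 2.09 against 1.25 ± 0.52, a difference of -1.99 (SE 0.96, unadjusted p = 0.0539), and -0.22 with slide as a block. Without HFD d30 replicate 3, the 1 array on which this probe was not well above background, the HFD d30 difference was -1.20. The brighter probe lies at chr15:82034765-82034824 and the dimmer one at chr15:82030068-82030127 of mm9, both on the plus strand and annotated to transcript NM_033218, with starts 4697 bases apart on the genome. Their first 30 bases show that the probes read different stretches of the transcript.
Srebf2 brighter probe, chr15:82034765-82034794: aactaggtctttgcaccagagagcattttg
Srebf2 dimmer probe, chr15:82030068-82030097: atccagctgttcacctgtgacctgctactg

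In the ratio of the brighter to the dimmer probe within an array, a value subtracted from the whole array cancels, while a scaling that depends on brightness does not. It was compared between groups after the values had been seen, in 9 comparisons of 3 genes. For Srebf2 the log2 ratio was 3.20 to 7.29 on HFD d10 arrays and 2.44 to 8.70 on HFD d30 arrays, against 0.53 to 2.20 on control arrays, so that neither diet group overlapped control. The 8.70 is HFD d30 replicate 3, where the dimmer probe was not well above background, so it has no exact value, and with that probe set to its array's detection floor the HFD d30 difference given next was 3.12. The mean ratio differed from control by 3.48 at HFD d10 and by 3.33 at HFD d30, each with an exact permutation p = 0.00794, the smallest that 5 against 5 arrays allow, and p = 0.0238 after Benjamini-Hochberg adjustment over the 9 comparisons. The HFD d10 and HFD d30 differences were smaller in the deposited values, at 1.82 and 1.41 (4 diet arrays each, exact permutation p = 0.00794), and 2.70 and 2.48 with normexp background correction. Within slide 1 the HFD d10 difference was 2.49 (3 against 5 arrays, exact permutation p = 0.0179, the smallest possible there), and without HFD d30 replicate 3 the HFD d30 difference was 2.36. For Mvk the log2 ratio was 2.03 to 3.80 on HFD d30 arrays, against 0.21 to 2.27 on HFD d10 arrays and -0.57 to 1.79 on control arrays. HFD d30 thus lay apart from control by 2.15 (exact permutation p = 0.00794, adjusted p = 0.0238) and from HFD d10 by 1.60 (exact permutation p = 0.0159, adjusted p = 0.0357), or 0.94 within slide 2 (5 against 2 arrays, exact permutation p = 0.143). HFD d10 and control differed by 0.55 (exact permutation p = 0.381). In the deposited values the HFD d30 differences for Mvk were 1.32 from control (exact permutation p = 0.0159) and 1.04 from HFD d10 (exact permutation p = 0.0317). For Hmgcs1 the ratio of HFD d30 differed by 2.35 from control (exact permutation p = 0.111, adjusted p = 0.167) and by 2.09 from HFD d10 (exact permutation p = 0.0952, adjusted p = 0.167), and that of HFD d10 by 0.27 from control (exact permutation p = 0.897), so none of its 3 comparisons passed. Its dimmer probe was not well above background on any HFD d30 array, so the ratios there have no exact value. With dim values set to the detection floor, its HFD d30 differences were 1.30 from control and 1.27 from HFD d10. The Srebf2 and Mvk ratios show unequal change of the probes, not which of them follows the gene. Between HFD d30 and control, a slide effect that differs between probes cannot be told apart from diet, since no slide held both groups. Among 7353 genes with at least 2 tested probes, the ratio of the 2 brightest probes did not overlap for 0.571% between HFD d10 and control, 0.694% between HFD d30 and control and 0.612% between HFD d30 and HFD d10. Probes of opposite sign were common, at 49.7% of these genes for HFD d10 against control, 49.3% for HFD d30 against control and 50.2% for HFD d30 against HFD d10.

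**Figure D2:**
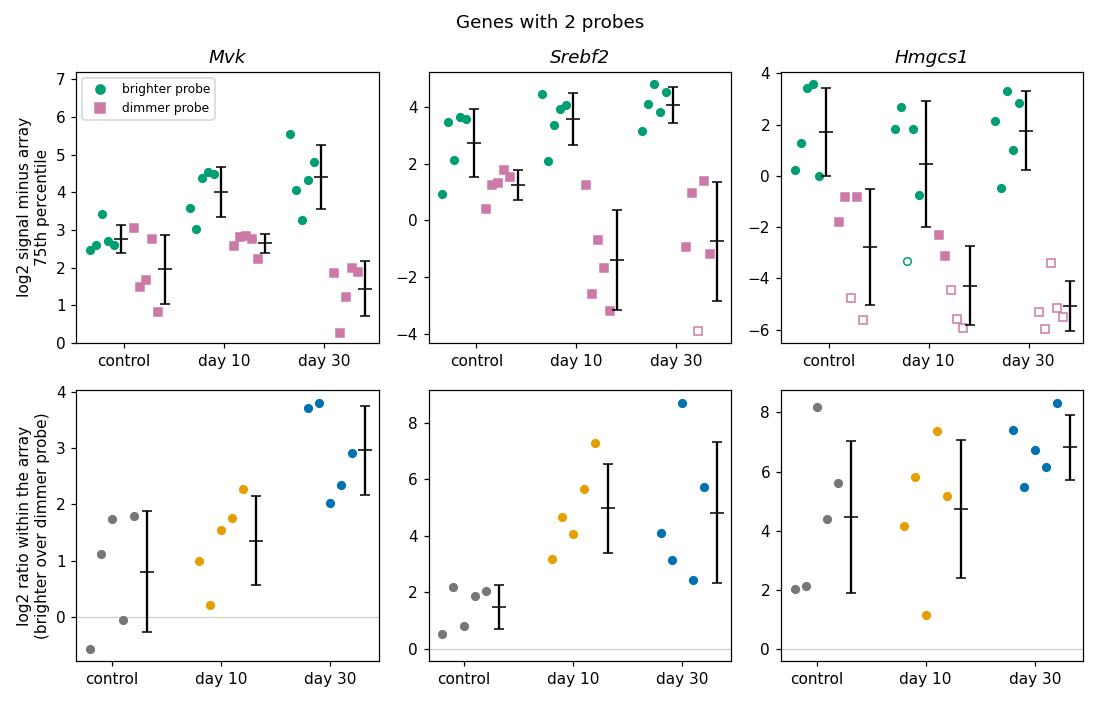
The top row plots the log2 signal of both probes of Mvk, Srebf2 and Hmgcs1 minus the array's 75th percentile, by group, with 1 point per array and open points where the probe was not well above background. The bottom row plots the log2 ratio of the brighter over the dimmer probe within each array, and bars are means ± SD (n = 5). The Srebf2 ratio is at least 2.44 on all diet arrays and at most 2.20 on control arrays, and the Mvk ratio is at least 2.03 on HFD d30 arrays and at most 1.79 on control arrays.

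Hmgcs1 encodes the cytosolic synthase that joins acetyl-CoA and acetoacetyl-CoA into HMG-CoA. Its brighter probe gave 0.23, 1.29, 3.44, 3.57 and -0.0047 on the control arrays, 1.84, 2.70, -3.30, 1.81 and -0.74 on the HFD d10 arrays and 2.13, -0.49, 3.32, 1.02 and 2.83 on the HFD d30 arrays. Each group spanned more than 3 log2 units, and HFD d10 replicate 3 was the 1 array not well above background. HFD d10 averaged 0.46 ± 2.46 against 1.70 ± 1.72 in control (difference -1.24, 95% interval -3.59 to 1.11), and HFD d30 averaged 1.76 ± 1.53 against 1.70 ± 1.72 (difference 0.06, 95% interval -2.29 to 2.41). Without HFD d10 replicate 3 the HFD d10 difference was -0.30. A dimmer probe named Hmgcs1 is annotated to the clone AK031297, lies 235 bases downstream and was well above background on 3 control arrays, 2 HFD d10 arrays and 0 HFD d30 arrays. Its measured mean was -5.06 at HFD d30 against -2.77 in control (unadjusted p = 0.0449, adjusted p = 0.944 by limma over probes). Control replicates 3 and 5 were also not well above background, so the difference has neither an exact size nor a lower bound. With dim values of all groups set to the detection floor, each array's dimmest signal counted as well above background, it was -1.24 (unadjusted p = 0.087 by limma over probes). With slide as a block the difference of the measured values was 0.16.

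Further down the chain, Idi1 encodes the isomerase that interconverts isopentenyl and dimethylallyl diphosphate, the building blocks of all isoprenoids. Idi1 gave -2.34, -6.54, -1.64, -0.38 and -0.42 on the control arrays, -2.45, -0.89, -1.05, -5.92 and -6.43 on the HFD d10 arrays and 0.21, -6.18, -0.11, -0.93 and -1.56 on the HFD d30 arrays. Every group held 1 or 2 arrays between -6.54 and -5.92 that were not well above background, so the spread within groups was wider than any difference between their means. The difference from control was -1.09 at HFD d10 (95% interval -4.25 to 2.08) and 0.55 at HFD d30 (95% interval -2.62 to 3.71). With slide as a block, HFD d30 differed by 5.26 from control (unadjusted p = 0.0347, adjusted p = 0.9999 by limma). From HFD d10 it then differed by 4.46 (unadjusted p = 0.0195, adjusted p = 0.979 by limma). HFD d10 replicates 4 and 5, its only arrays on slide 2, were at -5.92 and -6.43, not well above background.

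Fdps encodes farnesyl diphosphate synthase, whose product feeds both sterols and protein prenylation. It was well above background on all 15 arrays and gave 0.01, 1.52, 2.89, 1.69 and 2.06 on the control arrays, 1.28, 0.85, 2.56, -0.34 and 1.62 on the HFD d10 arrays and 3.74, 1.08, -0.02, 0.96 and 1.62 on the HFD d30 arrays. The groups covered each other, with log2 differences from control of -0.44 at HFD d10 (95% interval -1.95 to 1.07) and -0.16 at HFD d30 (95% interval -1.67 to 1.35).

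Sqle encodes squalene epoxidase, the first oxygen-dependent step of sterol synthesis. It gave -1.37, -0.49, 0.72, 0.36 and 0.73 on the control arrays, 2.00, -1.75, -1.12, 1.23 and 0.92 on the HFD d10 arrays and -1.87, 1.95, -4.96, -1.11 and 2.02 on the HFD d30 arrays. Its SD was 1.61 at HFD d10 and 2.92 at HFD d30, against 0.91 in control, and the means were 0.26 at HFD d10 and -0.79 at HFD d30, against -0.01 in control. The differences from control were 0.27 at HFD d10 (95% interval -2.18 to 2.71) and -0.78 at HFD d30 (95% interval -3.23 to 1.66), and without HFD d30 replicate 3 the HFD d30 difference was 0.26.

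Among the regulators, Insig1 encodes the endoplasmic reticulum protein that retains SCAP and is itself an SREBP target. It gave 1.01, 1.27, 2.72, 0.56 and 2.04 on the control arrays, 1.46, 0.87, -5.57, 2.92 and 1.97 on the HFD d10 arrays and 3.19, -1.09, 1.70, 2.24 and 0.26 on the HFD d30 arrays. HFD d10 replicate 3, again not well above background, set the HFD d10 mean: the difference from control was -1.19 with it and 0.29 without it. At HFD d30 the difference was -0.26 (95% interval -2.95 to 2.43). Srebf1 gave -0.97, -0.95, -2.89, -0.70 and -0.31 on the control arrays, 0.16, -1.05, -2.98, -2.28 and -1.02 on the HFD d10 arrays and -0.81, -0.18, -1.83, -1.29 and -0.91 on the HFD d30 arrays. It was detected on every array, the groups overlapped, and its differences from control were -0.27 at HFD d10 (95% interval -1.70 to 1.15) and 0.16 at HFD d30 (95% interval -1.27 to 1.58).

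**Figure D3:**
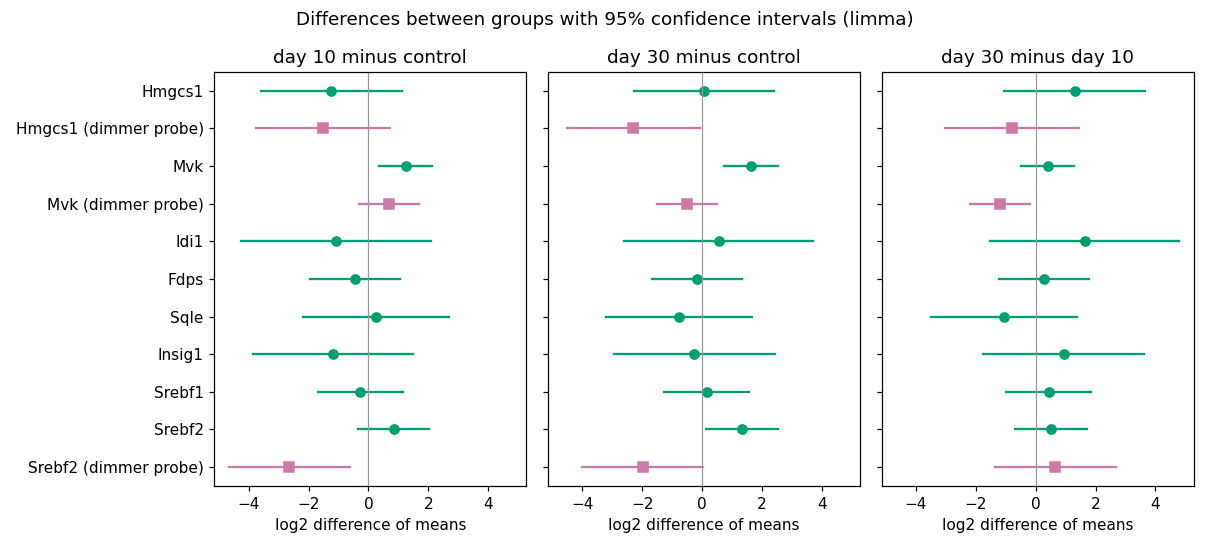
Points are log2 differences of group means for each of the 11 probes and lines their 95% confidence intervals from limma, for HFD d10 minus control, HFD d30 minus control and HFD d30 minus HFD d10. The intervals that leave out 0 are those of both diet groups for the brighter Mvk probe, HFD d30 for the brighter Srebf2 and the dimmer Hmgcs1 probe, HFD d10 for the dimmer Srebf2 probe, and HFD d30 against HFD d10 for the dimmer Mvk probe, and none of these has an adjusted p under 0.05.

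Detection, which differed between arrays, was set against each member's brighter probe after group means were removed. Over the 15 arrays Pearson r ran from -0.461 for Fdps to 0.406 for Srebf1 and Spearman rho from -0.457 to 0.404, and the smallest permutation p was 0.0841 for Pearson and 0.0891 for Spearman. After Benjamini-Hochberg adjustment over the 8 relations these were 0.403 and 0.384. For Fdps r was -0.0926 without control replicates 1 and 3, -0.919 within slide 1 (8 arrays) and -0.0732 within slide 2 (7 arrays).

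The genes most like a member over the 15 arrays were sought for the 4 members well above background on all of them, among 6065 genes detected as often that carry a RefSeq symbol. Mvk was most like Cherp (Pearson r = 0.841) and Ntan1 (0.837), and Srebf2 most like Vps13d (0.890) and Rps23 (0.841). Fdps was most like Abi1 (0.891) and Tbca (0.816), and Srebf1 most like H4c8 (0.753) and Pramel51 (0.725). These are the highest of many correlations, the arrays share depth and slide, and no p-value is given.

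The rest of the sterol chain was described from a list of 22 enzymes, the members included, of which 21 were tested. At HFD d10, 9 enzymes had a mean above that of control and 12 one below it. The median difference was -0.15, against -0.0017 for all tested genes, and 1 enzyme (Mvk) had an unadjusted p under 0.05. At HFD d30, 12 had a higher mean and 9 a lower one, and the median difference was 0.37, against 0.0050 for all genes, and again 1 (Mvk). Pmvk, the kinase that follows Mvk, averaged 3.21 ± 0.44 at HFD d30 against 1.21 ± 2.52 at HFD d10, a difference of 2.00 (SE 0.86, unadjusted p = 0.0341, adjusted p = 0.999 by limma). Among later enzymes, the differences of HFD d30 from control were -0.14 (SE 1.28) for Fdft1, squalene synthase, -0.16 (SE 0.71) for Cyp51, the lanosterol demethylase, and 0.37 (SE 1.14) for Dhcr7, a reductase of the last steps. Ebp, the sterol isomerase, and Sc5d, a sterol desaturase, were chosen after their values were seen, with differences of -2.58 (SE 1.23, unadjusted p = 0.0522) and 0.80 (SE 0.60, unadjusted p = 0.197). Lss, lanosterol synthase, was well above background on 3 control arrays, 3 HFD d10 arrays and 0 HFD d30 arrays, and no difference is given.

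Of 7 SREBP regulators, all tested, 4 lay above control and 3 below at HFD d30. Of the 7, 2 (Srebf2 and Scap) were higher with an unadjusted p under 0.05 by limma, against 2.48% of all tested genes. For Srebf2 this is the brighter probe alone. That probe and the Scap probe were well above background on all 15 arrays. Genes so detected had a median HFD d30 difference from control of 0.21, against 0.0050 for all tested genes. Scap, the escort of SREBP, averaged 2.29 ± 1.10 at HFD d30 against -0.37 ± 2.53 in control, with a difference of 2.66 (SE 1.02, unadjusted p = 0.0190, adjusted p = 0.927 by limma). Insig2, the constitutive relative of Insig1, was detected on 6 of 15 arrays, with differences of -2.48 at HFD d10 and -1.06 at HFD d30. None of the 7 passed the adjusted threshold in any comparison.

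Against 50.3% of all genes with a higher mean at HFD d30 than in control, the counts for targets outside the chain are a description. Of 6 uptake and trafficking genes 4 lay above control at HFD d30, with a median of 0.64. Of 11 fatty acid synthesis genes 9 were tested, 3 above control and 6 below at HFD d30, with a median of -0.65. Fasn was well above background on 3 arrays and was not tested. Scd2, a stearoyl-CoA desaturase, was well above background on 5 control arrays, 2 HFD d10 arrays and 2 HFD d30 arrays. Its differences were -2.93 at HFD d10 and -2.82 at HFD d30 (unadjusted p = 0.0956 and 0.108 by limma), sizes that rest partly on dim values. Elovl6, a fatty acid elongase, averaged -0.74 ± 2.75 at HFD d30 against 1.94 ± 1.08 at HFD d10, a difference of -2.68 (SE 1.08, unadjusted p = 0.0248).

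Among 9 genes of LXR, the nuclear receptor that senses oxysterols, and of sterol efflux and esterification, 7 were tested. Nr1h2, which encodes LXR-beta, averaged -0.02 ± 0.79 at HFD d30 against 1.46 ± 0.63 at HFD d10, a difference of -1.48 (SE 0.47, unadjusted p = 0.00670, adjusted p = 0.999 by limma). Apoe averaged -0.03 ± 0.87 against -1.55 ± 0.31, a difference of 1.52 (SE 0.55, unadjusted p = 0.0140), and it is also a gene of macrophages. The mean log2 value of 8 macrophage and dendritic cell markers lay between -1.85 and -0.16 on HFD d30 arrays and between -2.85 and -1.09 on HFD d10 arrays, and its part in the Apoe difference was not tested. The efflux pump gene Abcg1 had differences of 0.44 at HFD d10 and 0.94 at HFD d30 (unadjusted p = 0.549 and 0.215), and Abca1 was well above background on 3 arrays and not tested.

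**Figure D4:**
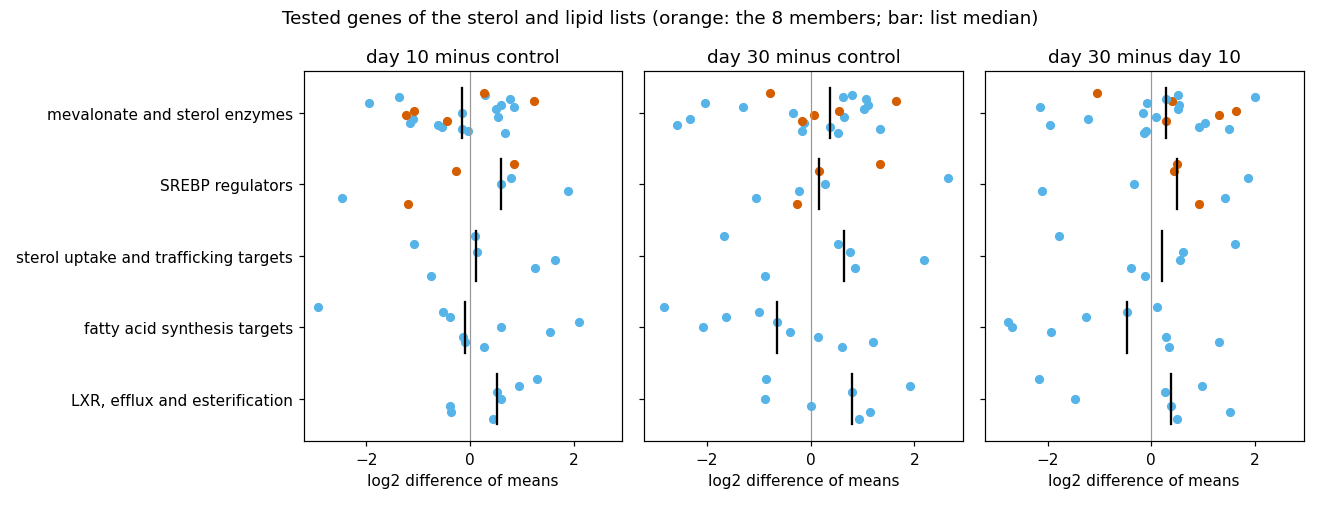
Each point is the log2 difference of group means of 1 tested gene, by list down the page and by comparison across the panels, with the 8 members in orange and the list median as a bar. List medians lie between -0.65 and 0.79, and the points of each list lie on both sides of 0 in every panel.

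The upstream sequence of the members was read for the motifs through which this pathway is known to be controlled. RefSeq (GRCm38.p6) listed promoters for 6 of the 8 genes, and Fdps and Sqle had no entry. The sterol regulatory element TCACCCCAC, searched on both strands of the 250 bases before the start, is held by 0.496% of 32851 promoters. Of the 6 members with a promoter, Hmgcs1 alone held it. Only exact matches were counted, so a near one such as tcaccccat before Srebf2 was left out. CCAAT, the box of the NF-Y factor that works beside SREBP, is held by 33.8% of promoters, and 4 or more copies by 0.840%. Mvk holds 5 copies, Hmgcs1 3, Idi1 2 and Insig1 and Srebf2 1 each, and Srebf1 holds 1 before each of 2 of its 3 listed starts. The promoters of the genes whose probes differed are printed with that of Hmgcs1 for comparison, 5′ to 3′ on the strand of the gene, with the sterol element and CCAAT or its complement ATTGG in capitals. A match is a string of letters and not a shown site.
Mvk, chr5:114444019-114444268, plus strand: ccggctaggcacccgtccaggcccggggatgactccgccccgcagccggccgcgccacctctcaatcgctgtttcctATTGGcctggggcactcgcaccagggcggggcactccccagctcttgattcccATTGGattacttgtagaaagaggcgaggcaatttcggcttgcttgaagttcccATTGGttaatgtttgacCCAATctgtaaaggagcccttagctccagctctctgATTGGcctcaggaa
Srebf2, chr15:82147019-82147268, plus strand: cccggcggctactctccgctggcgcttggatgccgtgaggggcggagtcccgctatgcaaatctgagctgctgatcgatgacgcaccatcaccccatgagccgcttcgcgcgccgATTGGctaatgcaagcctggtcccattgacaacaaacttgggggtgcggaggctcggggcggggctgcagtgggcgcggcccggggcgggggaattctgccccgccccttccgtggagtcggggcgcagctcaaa
Hmgcs1, chr13:119690101-119690350, plus strand: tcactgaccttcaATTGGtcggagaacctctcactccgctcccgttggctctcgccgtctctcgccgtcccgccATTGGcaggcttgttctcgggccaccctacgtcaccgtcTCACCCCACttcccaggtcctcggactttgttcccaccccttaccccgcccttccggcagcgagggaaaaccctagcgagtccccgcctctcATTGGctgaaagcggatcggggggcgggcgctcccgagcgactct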

How the data were processed

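The members and gene lists were chosen with earlier results of these data known. Feature Extraction 10.7.3.1 made the deposited linear intensity values on a grid of build mm9, per the file headers, with spatial and multiplicative detrending within an array and local background correction switched off. The deposited table holds log2 values of the same arrays with 1 distribution (median 5.51 in each); how it was scaled is not stated in the labels, and its order matched the mean spot intensity. For this report, outlier spots and 1 damaged line were left out, spots of a probe were averaged on the log2 scale, each array's 75th percentile was subtracted, and a gene took its probe of highest mean. Genes entered the fit when 5 or more of the 15 arrays showed this probe well above background. The fit of group means used limma 3.58.1 (R 4.3.3), lmFit and a two-sided eBayes with an intensity trend, with Benjamini-Hochberg adjustment over all tested genes, or over all 38436 tested probes for the dimmer probes, at a threshold of 0.05. Probes took RefSeq symbols by name, transcript or synonym (31461 of 55680). Named beside the members were 13 preset lipid genes, list genes with an unadjusted p under 0.05 and the 2 genes most correlated with each fully detected member. Some of these genes are not reported here. The comparison of probe ratios, and leaving out arrays that stood apart, were chosen after seeing the data. Alternatives covered scaling, background correction, filter, probe choice, slide, detection share, replicate number and each array left out. The fit was tested on simulated data, with no outcome given here.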

Additional observations from a re-analysis of the deposited data

Results flagged for a closer look

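In the 33 combinations of a member probe and a group, 4 arrays stood far from the other 4 of their group, where chance flags about 1 in 20. Idi1 was at -6.18 on HFD d30 replicate 2, with the next array at -1.56, and the probe was not well above background there. Insig1 was at -5.57 on HFD d10 replicate 3, with the next array at 0.87, and it too was not well above background. Srebf1 was at -2.89 on control replicate 3, with the next array at -0.97. The brighter Mvk probe was at 3.41 on control replicate 3, with the next array at 2.70.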

How the results depend on the processing

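No member reached an adjusted p under 0.05 under any of the 846 alternative values computed for the 33 differences by limma, and 58 of those values had the opposite sign, 21 of them with 1 array left out. Part of the 846 values could not turn the sign. Leaving out an array outside a comparison, changing the filter or adding a replicate block left the difference as it was. In 12 of the 33 differences, both Mvk differences from control among them, no alternative turned the sign. With the replicate number as a replicate block 0 genes were called in each comparison, and the numbers do not pair the samples: correlations of same-numbered samples ran from -0.13 to 0.15, with 1 of 15 pairs over 0.1. Genes called over the whole array came to 1 for HFD d30 against control with slide as a block, and with 1 array left out to 0 to 1 for HFD d10 against control, 0 to 2 for HFD d30 against control and 0 to 2 for HFD d30 against HFD d10. The cause of the changes of sign was not tested.

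Differences that turned sign are given by setting. With slide as a block, HFD d30 against control was 0.76 for Fdps, -0.067 for Hmgcs1 and 0.16 for its dimmer probe. HFD d30 against HFD d10 was then 0.69 for the dimmer Hmgcs1 probe, -1.19 for Insig1 and -0.11 for Mvk, and HFD d10 against control 0.80 for Idi1 and -0.28 for Sqle. In the deposited table, HFD d30 against control was -0.37 for Hmgcs1, -0.083 for Idi1, 0.13 for Sqle and -0.34 for Srebf1. HFD d30 against HFD d10 was there -0.66 for Insig1, -0.084 for Mvk, -0.054 for Srebf1 and -0.068 for Srebf2, and HFD d10 against control 0.052 for Insig1. That table lacks values of some arrays. For Hmgcs1 it held HFD d30 replicate 1 alone against control replicates 1 to 3. For Sqle it held HFD d30 replicates 1 and 2 against the same controls. Values of Idi1, Insig1 and Srebf1 were missing on some arrays too. With the detection share as a covariate, HFD d30 against control was -0.70 for Hmgcs1, -0.23 for Idi1 and 0.047 for the dimmer Mvk probe, HFD d30 against HFD d10 -0.22 for Fdps, and HFD d10 against control 0.0021 for Srebf1. As a mean of a gene's probes, HFD d30 against control was -1.12 for Hmgcs1 and -0.33 for Srebf2, HFD d10 against control -0.90 for Srebf2, and HFD d30 against HFD d10 -0.40 for Mvk. With the percentile over fully detected probes, HFD d30 against control was -0.33 for Hmgcs1 and -0.23 for Srebf1, and HFD d30 against HFD d10 -0.014 for Fdps. Hmgcs1 at HFD d30 against control was -0.022 with normexp and -0.14 with quantile normalization, and its dimmer probe 0.030 for HFD d30 against HFD d10 with dim values raised to a floor. Without arrays that stood apart (control replicate 1, HFD d10 replicate 3 and HFD d30 replicate 3, as each comparison holds them), HFD d30 against HFD d10 was -0.030 for Hmgcs1 and -0.66 for Insig1, HFD d10 against control 0.16 for Insig1 and 0.16 for Srebf1, and HFD d30 against control -0.70 for Hmgcs1.

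With 1 array left out, HFD d30 against control ran from -0.73 to 0.21 for Fdps, -0.37 to 0.62 for Hmgcs1, -0.52 to 1.67 for Idi1, -0.74 to 0.33 for Insig1, -1.49 to 0.26 for Sqle and -0.27 to 0.37 for Srebf1. HFD d10 against control ran from -1.84 to 0.29 for Insig1, -0.17 to 0.77 for Sqle and -0.70 to 0.11 for Srebf1, and HFD d30 against HFD d10 from -0.29 to 0.65 for Fdps and -0.55 to 1.58 for Insig1. Scaling moved all genes: the median HFD d30 difference from control was 0.0050, against -0.38 with the percentile over fully detected probes and -0.24 in the deposited table. The share of genes at an unadjusted p under 0.05 that were higher at HFD d30 than in control was 48.1%, against 16.7% and 16.2% in those settings, 66.8% with normexp and 65.7% with the floor. The filter moved it too: over probes detected on all arrays the share was 75.9%, with a median difference of 0.21. Counts at an unadjusted p under 0.05 for HFD d10, HFD d30 against control and HFD d30 against HFD d10 were 673, 1336 and 1065, against 223, 697 and 373 over probes detected on all arrays. The HFD d10 count was 1059 with no filter and 1133 once detection was a covariate. For HFD d10 against control the share higher was 34.3%, and 50.1% with quantile normalization. For HFD d30 against HFD d10 it was 44.3%, and 22.03% with the percentile over fully detected probes, 32.2% in the deposited values, 63.4% with normexp and 61.6% with the floor. Over probes detected on all arrays it was 67.0%.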
